A study of Homo sapiens with 2 samples.

Results

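The genes described here encode the proteins by which a cell grips the matrix around it: the laminins, the integrins, and the adhesive ligands fibronectin (FN1) and vitronectin (VTN). They were picked by gene symbol alone, as every laminin chain (LAMA, LAMB or LAMC with 1 digit), every integrin alpha and beta subunit, and FN1 and VTN. The rule uses no measured value, although the gene families were chosen with earlier results of these data known. The rule found 40 of the 25436 symbols in the table, namely 12 laminin chains, 18 integrin alpha subunits, 8 integrin beta subunits and the 2 ligands. RNA was measured in HuES53 and HuES64, a pair of diploid human embryonic stem cell lines made from embryos of in vitro fertilization, both at a passage below 20 and labelled undifferentiated. The labels name no engineered change and no treatment, and both lines were controls in a study of haploid human embryonic stem cells. Each line gave 1 library of polyadenylated RNA, so no value has a replicate error, no test was possible, and every difference describes 2 libraries. Levels are in FPKM, fragments normalised to transcript length and to library size, so levels of different genes can be compared.

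Laminins are secreted trimers of 1 alpha, 1 beta and 1 gamma chain that polymerise into the basement membrane, the sheet on which epithelia rest. Integrins are membrane receptors built from 1 alpha and 1 beta subunit, and the alpha subunit largely sets which ligand is bound. Some pairs read laminin, some read the short peptide RGD of fibronectin and vitronectin, some read collagen, and another set belongs to blood cells. Human pluripotent stem cells are commonly grown without feeder cells on laminin or vitronectin, and they attach to these coats through beta1 and alphaV integrins. A transcript level says nothing of how much of a pair or trimer is assembled or reaches the surface.

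Markers of pluripotent cells were high in both lines, with all 12 listed genes at 1 FPKM or more and summed levels of 3736 FPKM in HuES53 against 3536 in HuES64. The highest were POU5F1 (1053 and 1381 FPKM), TDGF1 (723 and 528) and DNMT3B (521 and 376). Markers of platelets (sums of 1.68 and 1.78 FPKM over 8 genes, the highest being PF4, TREML1 and GP1BA) and neuroectoderm (2.63 and 2.14 over 8, with PAX6 and DCX among the highest) were low. Steps in the values of olfactory receptor genes put 1 FPKM over 1 kb at about 18.1 fragments in HuES53 and 14.8 in HuES64, a rough estimate from few genes. Intervals given here for a ratio rest on that estimate and cover counting error only. The difference between the lines is given as log2(FPKM + 1), HuES53 minus HuES64, a scale on which changes of low genes look smaller than in the plain ratio. It was taken for all 13790 genes whose mean over both lines reached 1 FPKM.

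Among the 40 genes, 26 stood at 1 FPKM or more in HuES53 and 24 in HuES64, and all 24 of these also did so in HuES53. The other 2 were ITGA9 and ITGB8. The share of all genes at 1 FPKM or more was not taken in either line, so these counts cannot be set against one. The 26 had a mean of at least 1 FPKM and were compared between the lines, and the remaining 14 were below 1 FPKM in both. At 100 FPKM or more were FN1, ITGB1 and ITGB5 in HuES53, and FN1 and ITGB1 in HuES64. The 40 genes summed to 1222 FPKM in HuES53 and 748 in HuES64, and FN1 alone made up 46.3% and 28.2% of this. They held 0.203% and 0.105% of the summed FPKM of all genes, a total that itself differed, at 601128 in HuES53 and 713421 in HuES64.

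**Figure D1:**
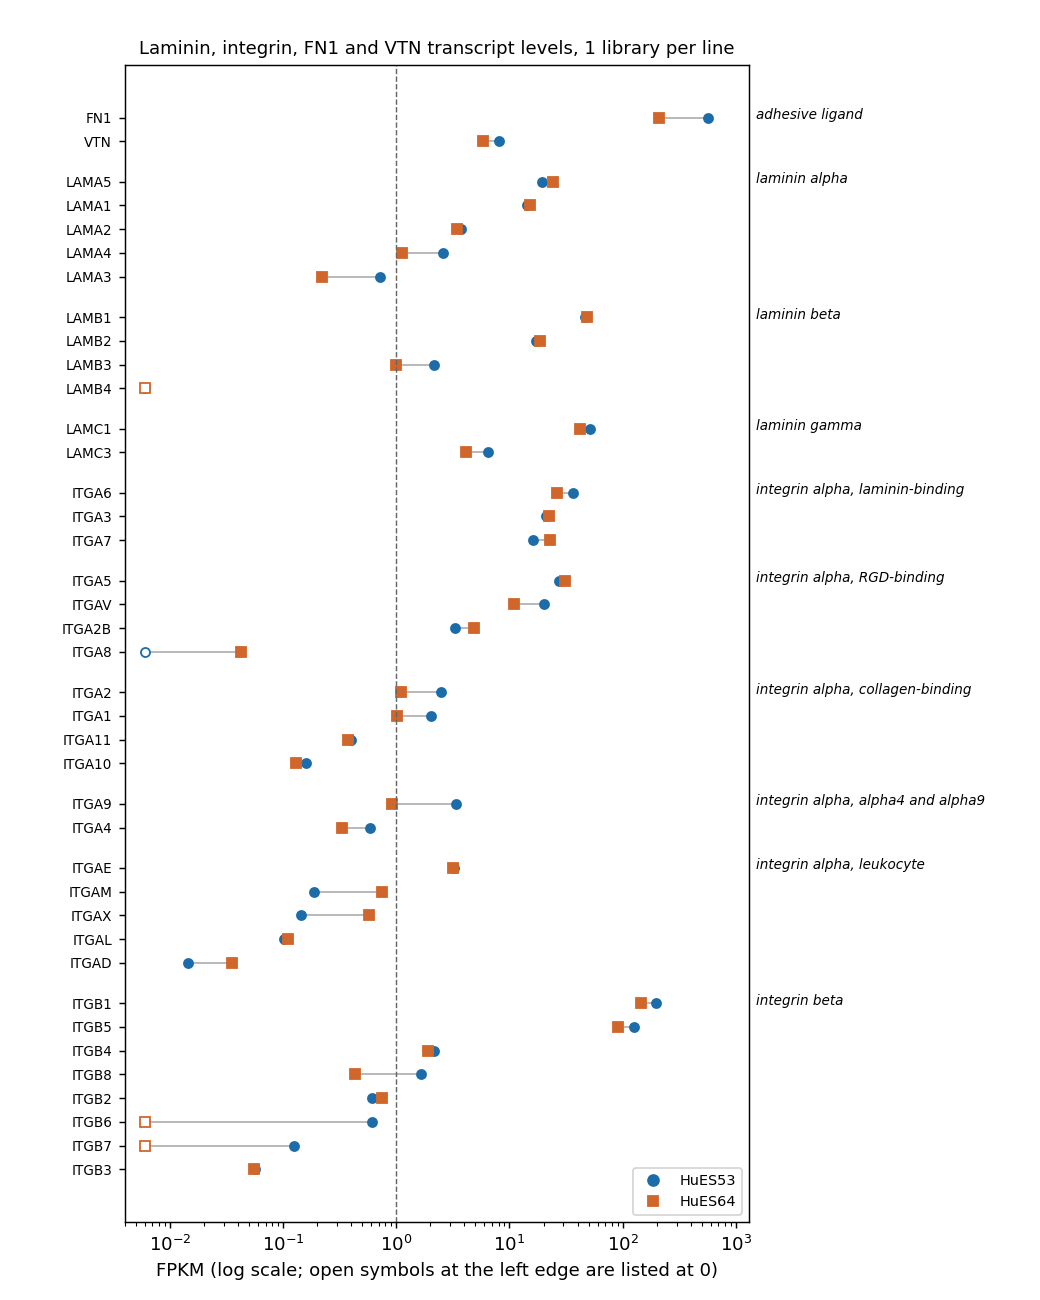
Levels of 39 of the 40 genes in HuES53 (circles) and HuES64 (squares), in FPKM on a log axis, grouped by role and ordered by mean level; 1 library per line, no error bars. Open symbols at the left edge are listed at 0 (LAMB4 in both lines) and the dashed line marks 1 FPKM; FN1 at 566 and 211 FPKM was the highest gene in both lines.

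Fibronectin, the dimeric matrix glycoprotein that cells bind through alpha5beta1 and alphaV integrins, had the highest transcript level of the 40 genes in each line. FN1 stood at 566 FPKM in HuES53 against 211 in HuES64, a ratio of 2.69 (counting interval 2.65 to 2.72) and a difference of 1.42. It ranked 144 among all genes in HuES53 and 521 in HuES64. Among the 1061 genes averaging at least 100 FPKM, 4 (0.377%) reached 2-fold towards HuES53, FN1 being 1 of them, and 22 (2.07%) towards HuES64. FN1 lies at chr2:216225177-216300791 in the coordinates of the deposited table, in a build not given in the sources used here. There the 1586 bases at the lower end of this range, 2.10% of the locus and the 3′ end of this minus-strand gene, are shared with another row, DNAPTP3. That row went the opposite way, at 3.71 FPKM in HuES53 against 87.3 in HuES64, and fragments of the shared stretch cannot be told apart. Added to FN1 after scaling by its locus length (2131 bases) over the longest FN1 transcript (9171 bases), it gave 567 and 231 FPKM, a ratio of 2.45 and a difference of 1.29. Scaled over the median FN1 transcript (2388 bases), it gave 569 and 289 FPKM, a ratio of 1.97 and a difference of 0.98, just under 2-fold, so whether FN1 passes 2-fold depends on how that row is counted. Vitronectin, the serum and matrix protein bound by alphaV integrins, was a much lower transcript, at 8.06 FPKM in HuES53 against 5.83 in HuES64 (difference 0.41). FN1 exceeded VTN 70.2 times in HuES53 and 36.1 times in HuES64.

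Endoderm markers also differed between the lines. Their 10 listed genes summed to 674 FPKM in HuES53 against 174 in HuES64, most of it CER1 in each line. Of 9 compared, 8 were higher in HuES53 (52.5% of all genes), 4 of them by 2-fold (2.15% of all genes). These were CER1, a secreted inhibitor of Nodal, at 543 and 104 FPKM, the chemokine receptor CXCR4 at 68.1 and 26.3, AFP at 7.25 and 1.53 and HHEX at 7.81 and 3.14, and FOXA2 stood at 11.9 and 9.26 FPKM. SOX17 went the other way, at 6.89 and 10.6 FPKM (difference -0.55), and none of the 10 was at 0. Fibroblast markers, which would accompany matrix-producing cells, summed to 261 and 273 FPKM over 12 genes, with 4 of 9 compared higher in HuES53 and 5 in HuES64. COL1A1 stood at 138 and 168 FPKM, COL1A2 at 66.5 and 46.7 and COL5A2 at 28.6 and 14.0 (difference 0.98), while COL3A1, at 3.08 and 8.00 FPKM, was the 1 past 2-fold, towards HuES64 (1.70% of all genes). FAP, an activated-fibroblast protease gene, was listed at 0 in HuES53 and stood at 0.178 FPKM in HuES64. The part of either cell type in the FN1 difference was not tested. In bulk RNA, fewer cells of a type and less RNA per cell cannot be told apart.

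The bases before 4 gene starts are printed because FN1 and its main receptor subunit ITGA5 went in different directions (with TPM scaling ITGA5 was near level, at 0.05), while ITGA1 and ITGA2, neighbours on one chromosome, both stood higher in HuES53. Each run holds the 250 bases before the RefSeq start of the gene in GRCh38.p14, read 5′ to 3′ on the gene's strand, with capitals for the motifs searched.
FN1 (chr2:215436069-215436318, minus strand): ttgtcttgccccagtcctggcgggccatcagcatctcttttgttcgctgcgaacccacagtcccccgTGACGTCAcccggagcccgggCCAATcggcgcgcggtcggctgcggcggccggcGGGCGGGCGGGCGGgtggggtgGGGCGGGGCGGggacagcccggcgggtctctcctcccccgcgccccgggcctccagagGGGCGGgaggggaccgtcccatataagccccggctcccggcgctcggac
ITGA5 (chr12:54419267-54419516, minus strand): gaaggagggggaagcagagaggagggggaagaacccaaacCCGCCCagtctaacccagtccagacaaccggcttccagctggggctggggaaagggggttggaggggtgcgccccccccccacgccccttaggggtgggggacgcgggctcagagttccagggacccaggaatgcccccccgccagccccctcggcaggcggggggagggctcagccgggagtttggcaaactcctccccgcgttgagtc
ITGA1 (chr5:52787666-52787915, plus strand): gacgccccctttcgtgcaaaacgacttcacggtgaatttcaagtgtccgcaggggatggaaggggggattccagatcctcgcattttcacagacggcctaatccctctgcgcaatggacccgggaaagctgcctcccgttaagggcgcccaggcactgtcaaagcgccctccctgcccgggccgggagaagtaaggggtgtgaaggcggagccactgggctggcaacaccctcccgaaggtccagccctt
ITGA2 (chr5:52989102-52989351, plus strand): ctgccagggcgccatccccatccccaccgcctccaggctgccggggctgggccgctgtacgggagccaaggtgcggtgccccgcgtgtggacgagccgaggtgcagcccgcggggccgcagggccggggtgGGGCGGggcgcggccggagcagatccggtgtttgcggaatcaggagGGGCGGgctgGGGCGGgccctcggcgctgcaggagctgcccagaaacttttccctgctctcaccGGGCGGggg
Capitals mark the cAMP response element TGACGTCA, the GC box GGGCGG, the TATA box TATAAA and the CCAAT box, each searched on both strands. Overlapping GC boxes were counted singly and appear as 1 longer run of capitals. The FN1 window held 1 cAMP response element, whose first base lies 183 bases before the start, together with 1 CCAAT box and 6 GC boxes. Among 35116 promoters of the same length the cAMP response element was found in 1.65%, the GC box in 42.6%, the CCAAT box in 32.0% and the TATA box in 10.7%. Of the 28 genes described here that matched the RefSeq table, FN1 was the one with a cAMP response element, ITGA6 was the one with the letters TATAAA, and 14 held a GC box. Only exact letters were searched, so variants of a motif, such as other forms of the TATA box, were not counted. ITGA2 had 4 GC boxes and ITGA5 had 1, while the ITGA1 window held none of the motifs. In the deposited coordinates the overlapping gene PELO (17.4 FPKM in both lines) starts at chr5:52083774 and ITGA1 at chr5:52084136. The ITGA1 window can therefore not be assigned to ITGA1 alone. A match is a run of letters and shows no binding.

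Laminin chains were dominated by those of a single group of trimers, LAMA5 or LAMA1 with LAMB1 or LAMB2 and LAMC1. LAMA5, the alpha chain of the embryonic basement membrane laminins on which pluripotent cells grow well, stood at 19.4 FPKM in HuES53 against 24.0 in HuES64. LAMA1, the alpha chain of an early embryonic laminin, followed at 14.4 and 15.2 FPKM. These 2 chains made up 47.5% and 35.3% of the alpha chain FPKM in HuES53, and 54.6% and 34.5% in HuES64. LAMA2, the chain of muscle basement membrane, stood at 3.70 and 3.44 FPKM, and LAMA4, a chain of blood vessel laminins, at 2.58 and 1.13 FPKM (difference 0.75). Of 5 endothelial markers compared, 4 were higher in HuES53, where all genes gave 52.5%, and none reached 2-fold. Their median difference was 0.09, or -0.07 after the subtraction of medians by GC content and length described below. All 10 endothelial markers summed to 86.3 FPKM in HuES53 against 89.1 in HuES64. Most of that sum was EGFL7 (26.3 and 41.9 FPKM), KDR (27.6 and 17.6, a difference of 0.62) and FLT1 (24.5 and 22.4), whereas CDH5 (0.176 and 0.132 FPKM) and PECAM1 (0.0501 and 0.0459 FPKM) were near 0 and ROBO4 was listed at 0 in HuES64. Their part in the LAMA4 difference was not tested. Of the laminin beta chain FPKM, LAMB1 held 70.6% in HuES53 and 71.3% in HuES64, with levels of 46.3 and 48.6 FPKM. LAMB2 stood at 17.2 and 18.6 FPKM, so that LAMB1 exceeded it 2.69 and 2.62 times. The lines were thus close in their main alpha and beta chains, and summed levels were 40.8 and 44.0 FPKM for alpha and 65.7 and 68.1 FPKM for beta.

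Of the laminin gamma chains, LAMC1, the gamma chain of most laminins, stood at 51.3 FPKM in HuES53 against 42.1 in HuES64 (difference 0.28), and LAMC3 at 6.40 and 4.11 FPKM (difference 0.53). Both were higher in HuES53, neither by 2-fold. LAMB3 and LAMA3, chains of epithelial laminin, were scarce. LAMB3 stood at 2.13 FPKM in HuES53 and 1 FPKM in HuES64, and LAMA3 at 0.717 and 0.223 FPKM. The HuES64 value of LAMB3 lies right on the 1 FPKM threshold and is the only value of exactly 1 in that library. LAMB4 was listed at 0 in both lines.

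**Figure D2:**
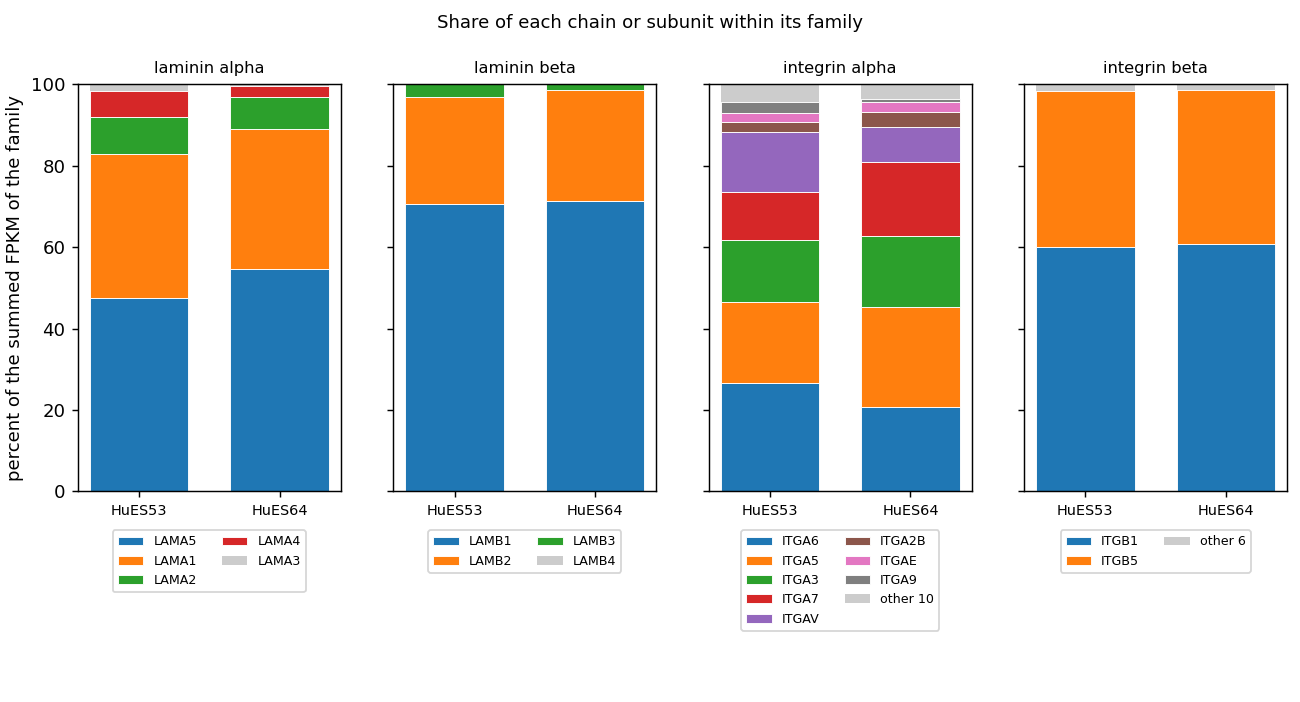
Share of each chain or subunit in the summed FPKM of its family (percent), for laminin alpha and beta chains and integrin alpha and beta subunits, 1 bar per line, 1 library each; genes under 2% in both lines are drawn in light grey. Shares within a family do not depend on how the libraries are scaled: ITGB1 held 60.1% and 60.7% of the beta subunit FPKM, while ITGAV held 14.7% of the alpha subunit FPKM in HuES53 and 8.58% in HuES64.

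Of the integrin beta subunits, ITGB1 and ITGB5 held nearly all of the FPKM. ITGB1, the common partner of 12 alpha subunits, stood at 199 FPKM in HuES53 against 144 in HuES64 (difference 0.46). ITGB5, which pairs with alphaV to bind vitronectin, stood at 127 and 90.0 FPKM (difference 0.49). Their ratio was close in the lines, ITGB1 exceeding ITGB5 1.57 times in HuES53 and 1.60 times in HuES64. ITGB4, the beta subunit of hemidesmosomes, stood at 2.13 and 1.91 FPKM. ITGB8, a partner of alphaV that opens latent TGF-beta, stood at 1.65 FPKM in HuES53 against 0.430 in HuES64. That is a ratio of 3.85 (counting interval 2.88 to 5.14), but a difference of 0.89 on the log2(FPKM + 1) scale, just under 2-fold. All 4 beta subunits that were compared stood higher in HuES53, but ITGB8 reached the mean of 1 FPKM only through HuES53, so the filter favoured its direction. The remaining 4 were ITGB2, ITGB3, ITGB6 and ITGB7, which stood at 0.616, 0.0566, 0.607 and 0.124 FPKM in HuES53. In HuES64, ITGB2 stood at 0.745 and ITGB3 at 0.0554 FPKM, and ITGB6 and ITGB7 were listed at 0, where a failed estimate is possible.

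Laminin-binding alpha subunits made up 53.7% of the alpha subunit FPKM in HuES53 and 56.3% in HuES64, and RGD-binding subunits 37.0% in each. ITGA6, the laminin receptor subunit often used as a stem cell surface marker, stood at 36.2 FPKM in HuES53 against 26.2 in HuES64 (difference 0.45). ITGA3 stood at 20.8 and 22.3 FPKM, and ITGA7, better known from muscle, at 16.1 and 22.9 FPKM (difference -0.48). The sum of these 3 laminin receptor subunits was nearly level, at 73.1 and 71.4 FPKM, since ITGA6 and ITGA7 went in opposite directions. ITGA6 exceeded ITGA7 2.25 times in HuES53 and 1.15 times in HuES64.

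ITGA5 and ITGAV, both RGD-binding, also went in different directions in the deposited values. ITGA5, the fibronectin receptor subunit, stood at 27.1 FPKM in HuES53 against 31.1 in HuES64 (difference -0.19), and ITGAV, which also binds vitronectin, at 20.0 and 10.9 FPKM (difference 0.82). ITGA5 thus exceeded ITGAV 1.36 times in HuES53 and 2.86 times in HuES64, while the class as a whole summed to 50.4 and 46.8 FPKM. The highest alpha subunit was ITGA6 in HuES53 and ITGA5 in HuES64. FN1 exceeded ITGA5 20.9 times in HuES53 and 6.77 times in HuES64. With each library divided by its FPKM sum the ITGA5 difference was 0.05, so its direction depends on the scaling, and the ITGAV difference was then 1.08. After subtraction of medians by GC content and length, described below, ITGA5 stood at -0.08 and ITGAV at 0.59.

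On the log2(FPKM + 1) scale the largest difference of an integrin subunit was that of ITGA9, which pairs with beta1 and binds tenascin and other matrix ligands. It stood at 3.38 FPKM in HuES53 against 0.916 in HuES64, a ratio of 3.69 (counting interval 2.99 to 4.55, from about 482 and 107 fragments) and a difference of 1.19. ITGA9 lies at chr3:37493813-37861281 in the table's coordinates and overlaps no other row. Its relative ITGA4 stood at 0.585 and 0.332 FPKM. The collagen receptor subunits ITGA1 (2.04 and 1.02 FPKM) and ITGA2 (2.47 and 1.09 FPKM) are adjacent on chromosome 5 with a gap of 35.7 kb, and both stood higher in HuES53, with differences of 0.59 and 0.73. ITGA1 overlaps the gene PELO (17.4 FPKM in both lines) over 8.66% of its locus. ITGA11 stood at 0.398 and 0.378 FPKM, ITGA10 at 0.160 and 0.131 FPKM, and ITGA8 was listed at 0 in HuES53 and stood at 0.0425 FPKM in HuES64.

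Integrin subunits of blood cells were low, and the 2 above 1 FPKM, ITGA2B and ITGAE, stood far above their partners. The leukocyte subunits ITGAL, ITGAM, ITGAX and ITGAD, which pair with ITGB2, stood at 0.102, 0.188, 0.143 and 0.0143 FPKM in HuES53, and at 0.112, 0.744, 0.570 and 0.0350 FPKM in HuES64. ITGAM and ITGAX are neighbours on chromosome 16, 22.3 kb apart, and in both the plain ratio of HuES53 to HuES64 was low, at 0.253 (counting interval 0.145 to 0.442) and 0.252 (0.132 to 0.478). Leukocyte markers summed to 22.5 FPKM in HuES53 against 17.5 in HuES64 over 12 genes, mostly LCP1 (12.8 and 7.23 FPKM), CORO1A (4.96 and 3.44) and CD68 (2.17 and 3.51), with CD3E at 0 in both lines. Like ITGAM and ITGAX, the myeloid markers CD68, LYZ (0.325 and 0.795 FPKM), TYROBP (0.156 and 0.761), CD53 (0.244 and 0.484) and SPI1 (0.537 and 0.765) were lower in HuES53, while CD14 stood at 0.329 and 0.355 and CSF1R at 0.183 and 0.154 FPKM, and their part in the ITGAM and ITGAX values was not tested. PTPRC, the common leukocyte antigen gene, was at 0.0458 FPKM in HuES53, with HuES64 listed at 0. ITGA2B, the platelet fibrinogen receptor subunit, stood at 3.28 and 4.82 FPKM, although its sole partner ITGB3 stood near 0, so that ITGA2B exceeded it 57.9 and 87.0 times. The platelet marker GFI1B was listed at 0 in both lines, and no other platelet marker exceeded 1.22 FPKM. ITGAE, whose partner is ITGB7, stood at 3.24 and 3.14 FPKM. It overlaps GSG2 (9.50 and 7.45 FPKM) over 3.23% of its locus.

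**Figure D3:**
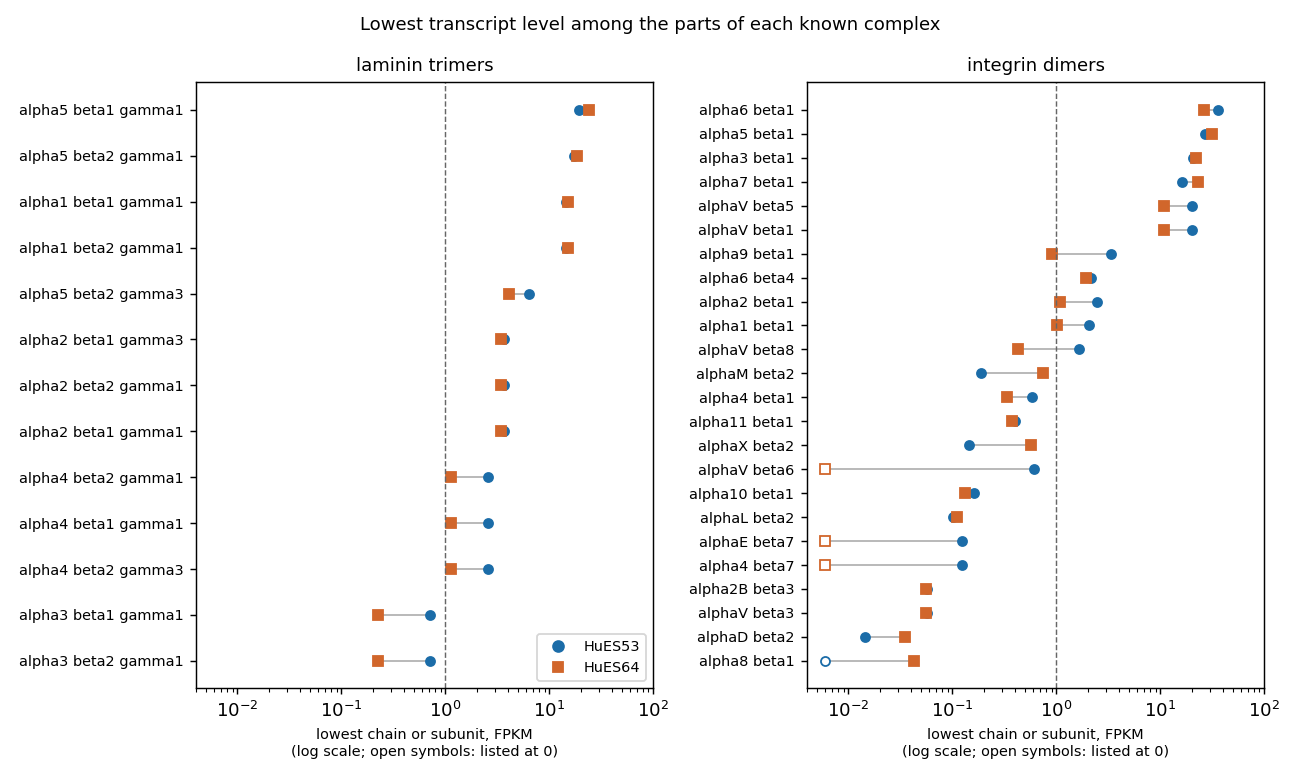
Lowest transcript level among the parts of each of 13 known laminin trimers and 24 known integrin dimers, in FPKM on a log axis, in HuES53 (circles) and HuES64 (squares); open symbols are listed at 0 and the dashed line marks 1 FPKM. Trimers of LAMA5 or LAMA1 with LAMC1 and 6 dimers stood above 10 FPKM in both lines, and the dimers of ITGB3, ITGB7 and ITGB2 stood below 1 FPKM.

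Put together as textbook complexes, all parts reached 1 FPKM for 11 of 24 integrin dimers in HuES53 and 9 in HuES64, and for 11 of 13 laminin trimers in each. The 2 trimers that did not were those with LAMA3, and the trimers were listed after the values were seen and leave some known ones out. The dimers with all parts at 1 FPKM in HuES53 alone were those of ITGA9 with ITGB1 and of ITGB8 with ITGAV. They repeat the detection of ITGA9 and ITGB8 given above. At 10 FPKM the counts were 6 dimers and 4 trimers in both lines. The scarcest part of the alpha5 beta1 gamma1 laminin was LAMA5, and that of the alpha5 beta2 gamma1 laminin was LAMB2, at 17.2 and 18.6 FPKM. The 6 dimers were those of ITGB1 with ITGA6, ITGA5, ITGA3, ITGA7 and ITGAV, and that of ITGB5 with ITGAV. In each of them the alpha subunit was the scarcer transcript. ITGB5 exceeded ITGAV, its partner, 6.32 times in HuES53 and 8.28 times in HuES64. ITGB1 exceeded the sum of all 12 alpha subunits that pair with it (129 and 117 FPKM) 1.54 and 1.23 times.

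Across the 26 genes compared, 2 reached 2-fold towards HuES53, FN1 and ITGA9, and 0 towards HuES64. Over all 13790 genes the shares were 2.15% towards HuES53 and 1.70% towards HuES64, and a count of 2 is too small to set the members apart from these. At 1.5-fold, a size chosen after the values were seen, 9 of 26 were higher in HuES53 and 0 in HuES64, where all genes gave 9.22% and 7.84%. Beside FN1 and ITGA9 they included ITGA1, ITGA2, ITGAV, ITGB8, LAMA4 and LAMB3. ITGA9 and ITGB8 were below 1 FPKM in HuES64 and reached the mean of 1 FPKM only through HuES53. The filter thus favoured that direction for them, and they are no support for it in these counts. The sign was towards HuES53 in 18 of 26, with 52.5% over all genes, and the median difference was 0.43, with 0.03 over all genes. With TPM scaling, which divides each library by its FPKM sum and moved the median of all genes to 0.25, 23 of 26 were higher in HuES53, 14 of them by 1.5-fold and 6 by 2-fold (5.22% of all genes). That shift of all genes enters the counts of 23 and 14, whose all-gene shares were not taken. The members' median then stood 0.42 above that of all genes, against 0.40 with the deposited values. The 5 that changed sign with this scaling were LAMA1, LAMB1, LAMB2, ITGA3 and ITGA5.

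**Figure D4:**
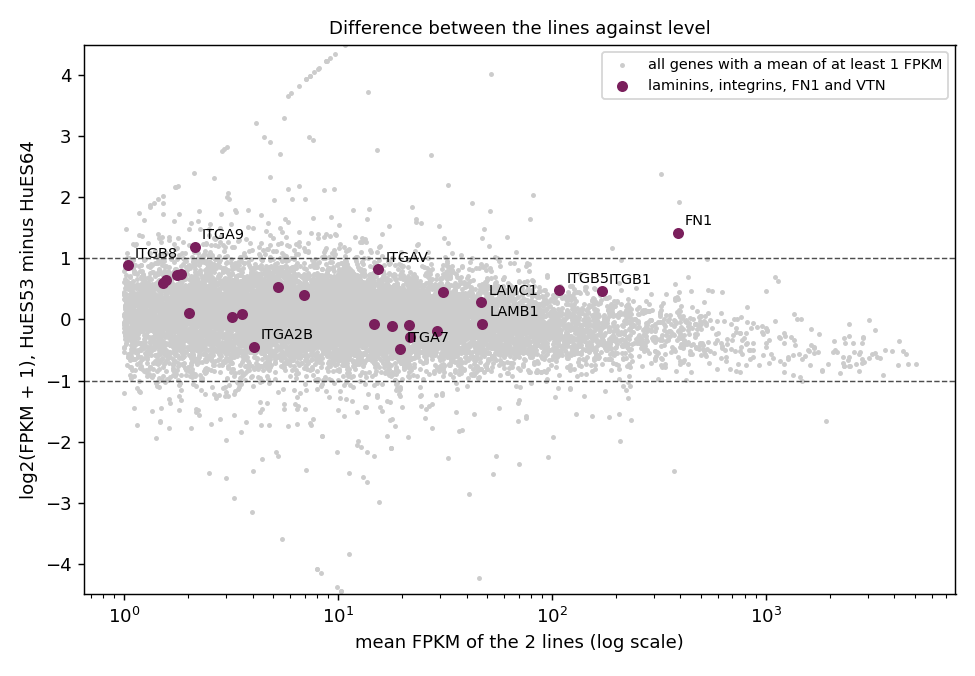
Difference in log2(FPKM + 1), HuES53 minus HuES64, against mean FPKM on a log axis, for all 13790 genes compared (grey; 23 lie beyond the plotted range) and for 25 of the 26 laminin, integrin and ligand genes (purple); dashed lines mark 2-fold. FN1 and ITGA9 lie above the upper line and no plotted member lies below the lower one.

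These differences moved with base composition, as they did over all genes. Spearman's rho between the difference and the GC content of the transcripts was -0.50 across the 26 members and -0.49 across 11916 genes, genes not being independent replicates. Of the 13 members lowest in GC, 12 stood higher in HuES53 with a median of 0.59, against 6 of the 13 highest with a median of -0.07. Once medians by GC content and length had been subtracted, the members' median was 0.37 (0.04 over all genes), or 0.23 with the longest transcript of each gene in place of the median one. FN1 then had a difference of 1.31, or 1.05 by the longest transcript, and ITGA9 had 1.26, or 0.98, which is just under 2-fold. Over all genes 1.84% were then past 2-fold towards HuES53 and 1.10% towards HuES64. Members higher in HuES53 numbered 19 of 26 in either version, with 55.0% of all genes by the median transcript and 56.0% by the longest. At 1.5-fold 9 members were higher in HuES53 (7.18% of all genes) with the trend removed and 0 in HuES64 (4.18%), and 6 of these 9 were also among the 9 above. By the longest transcript there were 6 (6.55%) and 0 (3.55%). FN1, ITGA9 and LAMB3 were among those past 1.5-fold in all 3 versions. ITGAV fell from 0.82 to 0.59, ITGB8 from 0.89 to 0.53 and ITGB1 from 0.46 to 0.26, while ITGB5 (0.70) and LAMC3 (0.72) moved up.

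**Figure D5:**
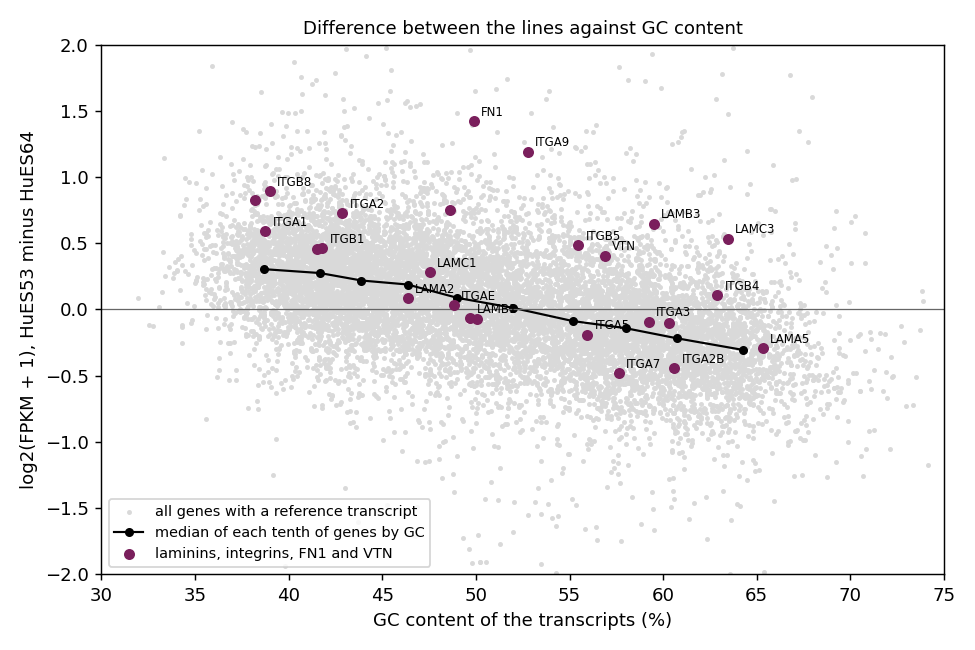
Difference in log2(FPKM + 1), HuES53 minus HuES64, against the GC content of the transcripts (percent), for all genes with a reference transcript (grey, drawn between -2 and 2) and 25 of the 26 members compared (purple, most of them labelled). The black line joins medians of 10 equal groups of all genes and falls from 0.30 to -0.31; FN1 and ITGA9 lie well above it and ITGAV near the low-GC end.

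Of 8 lists of genes that work with laminins and integrins, 6 held no compared gene at 2-fold in either direction. Over all genes 52.5% were higher in HuES53 and the median difference was 0.03, with 2.15% at 2-fold towards HuES53 and 1.70% towards HuES64. Of 14 basement membrane partners compared, 8 were higher in HuES53 and 6 in HuES64, none by 2-fold, with a median difference of 0.21. The highest were COL18A1 (131 and 189 FPKM), and the network collagens COL4A1 (107 and 76.9 FPKM) and COL4A2 (87.0 and 78.7 FPKM). Of the 7 laminin receptors that are not integrins, 3 were higher in HuES53 and 4 in HuES64, none by 2-fold, with a median of -0.12 that turned to 0.12 with TPM scaling and to 0.19 with the GC and length trend removed. They included the proteoglycan SDC4 (98.2 and 75.6 FPKM), the dystroglycan gene DAG1 (76.5 and 53.9 FPKM) and BCAM, a receptor for LAMA5 (42.2 and 67.8 FPKM). Genes of integrin activation and focal adhesions were nearly all expressed, with 27 of 28 compared, 20 higher in HuES53 and 7 in HuES64, none by 2-fold, and a median of 0.15. Filamin FLNA stood at 179 and 180.2 FPKM, vinculin VCL at 167 and 119, and zyxin ZYX at 138 and 174. The 8 integrin inhibitors and tail-binding proteins (4 higher in each line, median -0.08, or 0.16 with TPM scaling, with RAB25 at 73.9 and 85.4 and SHARPIN at 25.3 and 35.6 FPKM) held none at 2-fold. Nor did the 8 membrane partners, where SLC3A2 stood at 335 and 332 FPKM and the tetraspanins CD81 and CD9 at 292 and 322 and at 178 and 193 FPKM (3 higher in HuES53 and 5 in HuES64, median -0.13, or 0.12 with TPM scaling).

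Among other integrin ligands, 5 of 15 compared were higher in HuES53, 2 of them by 2-fold, and 10 in HuES64, none by 2-fold, with a median of -0.30, where all genes gave 52.5% above 0 and 2.15% and 1.70% at 2-fold. Nephronectin NPNT, a ligand of alpha8beta1, stood at 10.2 FPKM in HuES53 against 1.56 in HuES64, while its receptor subunit ITGA8 was at or near 0 in both. EDIL3, an RGD protein bound by alphaV integrins, stood at 45.5 and 17.4 FPKM. The highest ligands were osteopontin SPP1 (418 and 381 FPKM), MFGE8 (149.97 and 249.9 FPKM) and CTGF (78.0 and 96.4 FPKM). Of the counter-receptors on other cells, 5 of 9 were higher in HuES64, 3 of them by 2-fold, and 4 in HuES53, none by 2-fold, with a median of -0.15 (0.07 with TPM scaling and 0.21 with the trend removed). Over all genes 1.70% were at 2-fold towards HuES64 and 2.15% towards HuES53. The 3 counter-receptors at 2-fold were ICAM1 (2.20 and 5.81 FPKM), ICAM2 (0.214 and 1.79 FPKM) and MADCAM1 (0.563 and 2.35 FPKM), all ligands of leukocyte integrins. ICAM2 and MADCAM1 were below 1 FPKM in HuES53 and reached the mean of 1 FPKM only through HuES64. The filter thus favoured that direction for them, and their place in the count is no support for it. The highest counter-receptors were THY1 (243 and 227 FPKM), CDH1 (103 and 74.5 FPKM) and JAM3 (20.1 and 16.9 FPKM). With the trend removed, ICAM1 (-0.97), ICAM2 (-0.94) and MADCAM1 (-0.71) were each under 2-fold. Of 5 latent TGF-beta genes compared, which alphaV integrins act on, 1 was higher in HuES53 and 4 in HuES64, none by 2-fold (median -0.30, or -0.07 with TPM scaling and -0.0056 with the trend removed), with TGFB1 at 25.6 and 31.8, LTBP4 at 13.7 and 20.1 and LTBP1 at 13.1 and 12.2 FPKM.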

How the data were processed

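RNA sequencing of polyadenylated RNA was analysed in HuES53 and HuES64, 1 library each. The authors deposited FPKM values per gene. TopHat2 2.0.4 and Cufflinks 2.0.2 were used, per the submitters' processing notes, and their roles, the build, the annotation, the strand setting and any filters were not given in the sources used here. Of 25593 rows, 136 on chromosome Y were left out, and 21 repeated symbols were summed. Loci count from 0 (1271 of 1310 microRNA genes then had the reference length) and are printed from 1. With 1 library per line no test was run. GC content and transcript length came from GENCODE release 29 (86.4% of compared genes), and medians over 20 bins of each were subtracted in 5 rounds, checked on simulated data. Depth came from steps in olfactory receptor values (18 of 21 and 9 of 12 within 3% of whole fragments, 200 bases assumed), and fragment numbers used the longest transcript. Genes named are all members and, from each other list, the 3 highest and any at 2-fold, except that 1 member and 2 listed genes are not reported here. The other marker genes named (the leukocyte, endothelial and fibroblast genes at or near 0, the myeloid genes, SOX17 and GFI1B) were chosen after their values were seen. Members and lists were chosen with earlier results of these data known. Python 3.11.15 and pandas 2.3.3 were used. Alternatives were other pseudocounts, filters, scalings, trend removal, detection thresholds, repeated rows and overlapping loci.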

Additional observations from a re-analysis of the deposited data

How the results depend on the processing

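No paired analysis was possible because each line has a single library. The longest-transcript trend removal, both DNAPTP3 additions and the 1.5-fold size were chosen after seeing the data. FN1 was at least 2-fold higher in HuES53 under 10 of its 11 alternatives, from 1.05 to 1.67, and stood at 0.98 with DNAPTP3 added over the median transcript. The number of members at least 2-fold higher in HuES53 was 6 with a pseudocount of 0.1 FPKM (4.24% of all genes) and 6 with TPM scaling (5.22%). It was 1 for means of 5 FPKM or more (16 members, 1.67% of all genes) and 1 with trend removal by longest transcript (1.955%). Without overlapping loci, which drops FN1, it was 1 of 17 members (2.15% of all 13790 genes, from which overlapping genes were not left out). The number at 1.5-fold was 3 for means of 5 FPKM or more, 14 with TPM scaling and 4 without overlapping loci. No share of all genes at 1.5-fold was taken in any of these settings, so those counts cannot be set against one. TPM scaling moved the median of all genes from 0.03 to 0.25. It moved the members' median to 0.68, which is 0.42 above all genes against 0.40 before. With no filter the members' median was 0.09. At 5 FPKM, 16 members were detected in HuES53 and 15 in HuES64, and here too no share of all genes was taken. Medians of 4 other lists changed sign: non-integrin laminin receptors (0.12 with TPM scaling, 0.19 after trend removal, 0.079 with longest transcripts), integrin inhibitors (0.0496 for means of 5 FPKM or more, 0.16 with TPM scaling), membrane partners (0.12 with TPM scaling) and counter-receptors (0.093 for means of 5 FPKM or more, 0.071 with TPM scaling, 0.21 after trend removal, 0.13 with longest transcripts). The cause was not tested.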
